A study of Mus musculus with 6 samples.

Results

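The genes described here are the expressed antisense RNAs of the mouse right hippocampus, measured after a sham procedure and after transient middle cerebral artery occlusion (tMCAO). They are the genes that the deposited annotation files under the biotype antisense_RNA and whose mean over the 6 libraries was at least 2 FPKM. FPKM, as computed by the authors, scales the fragments of a gene by its exon length and the library's size. The imprinted and well-known non-coding genes Meg3, Rian, Mirg, Tsix, Gas5, Zfas1 and the Snhg genes were left out. This gave 656 genes of the 53465 in the table and of the 2727 with this biotype. They were thus selected on their mean FPKM, which is a description and not a finding. It ran from 2.003 to 268 with a median of 5.81, and 365 genes reached 5 FPKM, 203 reached 10 and 11 reached 100. All 656 were above 0 in every library.

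The samples were right hippocampi of male C57BL/6J mice, 3 labelled Sham and 3 labelled tMCAO. In tMCAO, a filament was pushed into the right internal carotid artery and withdrawn after 50 min of occlusion, so that blood flow returned. All animals were perfused with cold saline under chloral hydrate before dissection, and the sequenced RNA was captured on oligo-dT beads. The sources used here give neither the time from reperfusion to dissection, nor the sham steps, the ages or whether each library is a separate animal. The numbers of tMCAO 1, 2 and 3 are those of the table's columns, which carry no sample name.

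An antisense RNA is read from the strand opposite to another gene, the sense gene, and its exons can pair with the sense transcript base for base. Some antisense RNAs start back to back with the sense gene from a shared control region, and others lie inside it or run into its end. In mouse cells Uchl1os, the antisense RNA of the neuronal deubiquitinase gene Uchl1, is known to raise translation of Uchl1 mRNA through its overlap with the start of that mRNA and an embedded repeat. The antisense RNA of human ZEB2 is known to change how the start of the ZEB2 transcript is spliced. Most of the genes described here have no known function, and 423 carry only a Gm number, 104 a Rik name and 51 a clone name.

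Promoters are shown for Uchl1os and its sense gene Uchl1, for Rbm3os, and for Gm11767 and 2410021H03Rik, since these 4 antisense RNAs changed more than their sense genes and the results turn on them. Each is 250 bases before to 50 bases after the start, written 5′ to 3′ on the gene's own strand from RefSeq, GRCm38.p6. Capitals mark matches on either strand to 6 motifs. These are the TATA box with the letters TATAAA, the CAAT box with the letters CCAAT, the GC box with the letters GGGCGG, the cAMP response element with the letters TGACGTCA, the AP-1 motif with the letters TGANTCA and the NRF1 motif. In these windows no match overlapped another. The RefSeq table holds a second window for Gm11767, which had no match and is not shown. The windows are chr5:66676448-66676747 (minus strand) for Uchl1os, chr5:66675871-66676170 (plus) for Uchl1, chrX:8145177-8145476 (plus) for Rbm3os, chr11:119943045-119943344 (minus) for Gm11767 and chr17:69277157-69277456 (minus) for 2410021H03Rik.
Uchl1os: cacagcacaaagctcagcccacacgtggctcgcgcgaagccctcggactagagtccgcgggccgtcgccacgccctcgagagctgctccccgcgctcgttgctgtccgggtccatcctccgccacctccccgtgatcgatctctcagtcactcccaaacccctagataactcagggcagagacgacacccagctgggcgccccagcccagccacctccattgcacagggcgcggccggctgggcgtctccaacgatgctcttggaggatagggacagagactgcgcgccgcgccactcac
Uchl1: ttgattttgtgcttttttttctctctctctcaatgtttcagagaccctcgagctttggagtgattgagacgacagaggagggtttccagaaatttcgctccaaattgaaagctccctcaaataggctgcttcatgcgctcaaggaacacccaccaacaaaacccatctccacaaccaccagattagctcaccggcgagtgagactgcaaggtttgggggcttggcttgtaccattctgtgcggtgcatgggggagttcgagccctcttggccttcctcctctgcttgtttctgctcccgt
Rbm3os: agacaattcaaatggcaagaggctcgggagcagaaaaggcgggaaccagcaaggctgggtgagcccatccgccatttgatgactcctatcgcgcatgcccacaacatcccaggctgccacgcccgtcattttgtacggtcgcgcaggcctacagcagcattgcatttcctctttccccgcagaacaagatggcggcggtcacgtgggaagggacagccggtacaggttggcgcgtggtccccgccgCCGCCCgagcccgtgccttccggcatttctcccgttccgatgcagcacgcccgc
Gm11767: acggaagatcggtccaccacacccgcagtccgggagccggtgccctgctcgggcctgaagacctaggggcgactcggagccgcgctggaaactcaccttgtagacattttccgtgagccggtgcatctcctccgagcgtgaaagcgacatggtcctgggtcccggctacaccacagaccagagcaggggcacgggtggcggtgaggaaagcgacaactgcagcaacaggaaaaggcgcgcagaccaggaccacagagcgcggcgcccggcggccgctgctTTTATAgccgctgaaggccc
2410021H03Rik: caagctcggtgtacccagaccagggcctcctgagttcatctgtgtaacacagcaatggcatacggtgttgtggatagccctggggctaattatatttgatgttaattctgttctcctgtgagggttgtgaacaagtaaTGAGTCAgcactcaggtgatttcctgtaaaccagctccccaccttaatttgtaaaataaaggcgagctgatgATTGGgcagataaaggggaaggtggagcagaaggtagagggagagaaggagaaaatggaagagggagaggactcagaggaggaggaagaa

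None of the motifs was in the Uchl1os and Uchl1 windows. The Rbm3os window held 1 GC box and that of Gm11767 held 1 TATA box, both read on the other strand. That of 2410021H03Rik held a CAAT box, on the other strand, and an AP-1 motif. Windows of Gm11592, Gm16537, Gm15417 and Gm33051, which also changed more than their sense genes, are not shown. That of Gm11592 held 12 GC box matches and that of Gm16537 held 1 TATA box. A window of Gm15417 held 1 AP-1 motif, and that of Gm33051 held no match. Of the 656 genes, 201 had an entry, with 231 promoters in all. The TATA box was in 6.93% of these promoters against 13.6% of all 32851 in the table, the CAAT box in 36.4% against 37.4%, the GC box in 37.2% against 35.7% and the cAMP response element in 1.73% against 1.79%. The AP-1 motif was in 4.33% against 7.81% and the NRF1 motif in 1.73% against 4.60%. Such matches describe letters, not bound sites.

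**Figure D1:**
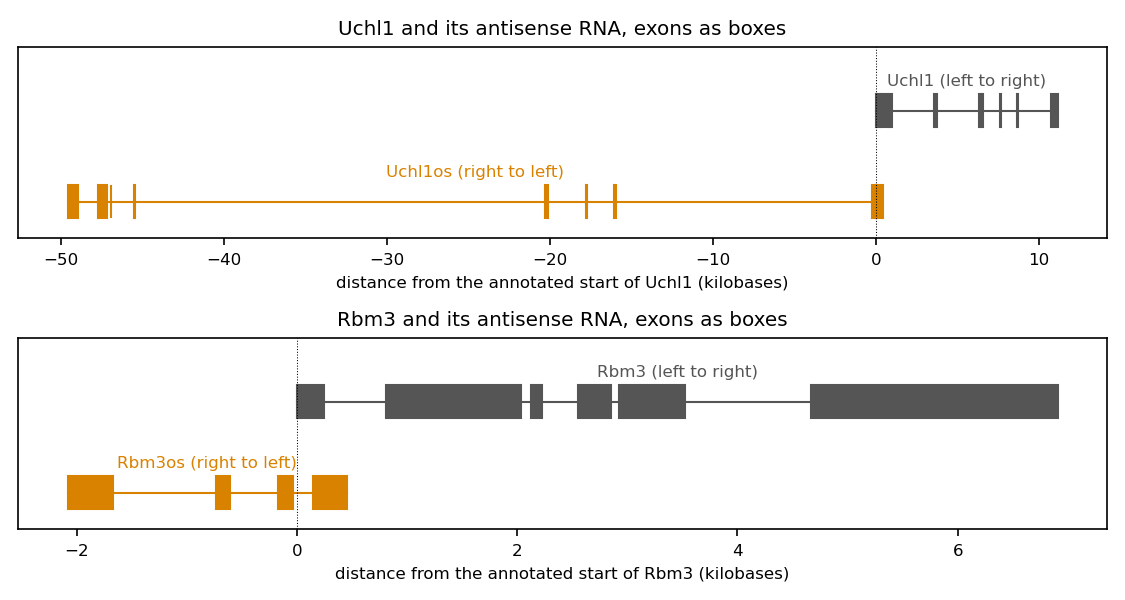
Exons (boxes) of Uchl1 with Uchl1os and of Rbm3 with Rbm3os in GENCODE M21, drawn by distance in kilobases from the annotated start of the sense gene, which runs left to right. Both antisense RNAs start inside the sense gene and run out past its start and, for Uchl1os, on for almost 50 kilobases.

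Positions in GENCODE M21 (build GRCm38, the same as mm10) could be given to 651 of the 656 genes. They had 1 to 15 exons, with 278 having 2 and 59 a single one, and a median exon length of 892 bases. The sense gene was taken as the protein-coding gene on the other strand that shared most exon length, which held for 612 genes. For 27 it was one whose span overlapped, and for 9 one that started within 1000 bases. For 3 there was none. The median antisense RNA shared 31.1% of its exon length with exons of genes on the other strand, 49 shared 99% or more, and 35 shared none. The sources used here do not name the counting program or its use of strand. If strand was not used, reads of the shared bases cannot be told apart between the pair.

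Assigned reads, recovered from the FPKM steps, ran from 39011025 to 46258696 in Sham and from 57773499 to 66128811 in tMCAO, and the antisense RNAs took 0.967% to 0.990% of them in every library. The lowest count of any antisense RNA in any library was 10 reads, the median of their lowest counts was 240, and 506 had at least 100 reads in every library. Sham 2 and tMCAO 3 stood apart from the other libraries. The summed FPKM of 9 striatal neuron markers was 634 in Sham 2 and 530 in tMCAO 3 and between 76.7 and 154 in the other 4, and that of 7 choroid plexus markers was 64.3 and 43.9 against 399 to 841. The 8 markers of hippocampal pyramidal and dentate neurons were above 0 in the series, at a sum of 92.3 to 124 in Sham and 116 to 124 in tMCAO. Of these 8, 1 rose and 1 fell. Of 5 microglial markers 4 fell, with sums of 44.0 to 53.8 in Sham and 22.2 to 29.1 in tMCAO, and 3 erythrocyte genes summed to 299.8 in tMCAO 1 against 2.38 to 13.5 elsewhere. The sums were 664.9 to 827 and 575 to 1181 for 4 oligodendrocyte markers, 108 to 115 and 102 to 114 for 4 of astrocytes, and 20.2 to 21.9 and 21.7 to 27.1 for 3 of endothelium, with none of these called. Of 3 ependymal markers, 1 fell, with sums of 6.68 to 9.25 and 3.96 to 7.65. In bulk tissue, fewer cells of a type and less RNA per cell cannot be told apart.

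In tMCAO 43 of the 656 antisense RNAs rose and 56 fell, 12 of the 99 by at least 1 on the log2 scale. The test was limma on log2(FPKM + 1) over 17832 genes with a mean of at least 0.5 FPKM, two-sided, with a Benjamini-Hochberg adjusted p below 0.05. These 99 were 15.1% of the antisense RNAs, while 15.3% of all tested genes passed, 8.5% being higher and 6.76% lower. The share of antisense RNAs that changed was near that of all genes. Their median difference was -0.08 and that of all tested genes 0.00. Without the adjustment, 250 antisense RNAs and 6305 of all genes had p under 0.05. The 3 Sham and 3 tMCAO values did not overlap for 272 antisense RNAs, 110 higher and 162 lower in tMCAO, against 43% of all tested genes.

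Setting each library to the same FPKM sum moved the split to 30 higher and 80 lower, with the median of all genes at -0.06. It was 25 and 57 without Sham 2 and tMCAO 3, where 10.1% of all genes passed, and 56 and 115 without tMCAO 3. In other classes at 2 FPKM or more, 1771 of 11011 protein-coding genes changed (16.1%, 1103 higher and 668 lower) and 50 of 244 lincRNAs (20.5%, 25 in each direction). Of 526 antisense RNAs with a mean from 0.5 to below 2 FPKM, 18 rose and 40 fell, 11.0% in all. The mean of both groups was at least 2 FPKM for 607 of the 656, and 85 of these changed. The other 49 passed the minimum through 1 group alone, 33 through Sham and 16 through tMCAO, and 14 of them changed.

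The number of calls depended on single libraries in the same way as that of all genes. It was 6, 15 and 2 without Sham 1, 2 and 3, when 0.606%, 1.53% and 0.398% of all genes passed. Without tMCAO 1, 2 and 3 it was 64, 66 and 171, with 8.03%, 11.6% and 20.7% of all genes. Called in each of these 6 fits were 2 antisense RNAs, Rbm3os and Gm13031. Gm11592, Zeb2os and Gm13111 were called in 5, and 11 further genes in 4.

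Uchl1os had the largest rise, and it reached the minimum of 2 FPKM through tMCAO alone. Its exons lie on chromosome 5 at 66626495 to 66676498 on the minus strand, and 295 of their 2190 bases are shared with Uchl1, whose enzyme releases ubiquitin in neurons. It measured 1.53, 1.89 and 1.66 FPKM in Sham 1, 2 and 3 and 29.3, 10.4 and 12.6 FPKM in tMCAO 1, 2 and 3. All tMCAO libraries were far above all Sham libraries, with tMCAO 1 the highest. The difference was 2.64 (SE 0.34, limma adjusted p 0.0116) on the log2(FPKM + 1) scale, from means of 1.69 ± 0.183 and 17.4 ± 10.3 FPKM (SD, n = 3 each). Uchl1 itself measured 234 ± 11.0 and 269 ± 24.7 FPKM (SD, n = 3 each), a difference of 0.19 (SE 0.09, adjusted p 0.190 by limma) that did not pass. The log2 level of Uchl1os minus that of Uchl1 was -6.60, -6.27 and -6.48 in Sham and -3.30, -4.49 and -4.23 in tMCAO. Here and below, such relative levels are differences of log2(FPKM + 1), which understate the ratio for low genes. The groups did not overlap (exact two-sided permutation test p 0.10, the smallest that 3 against 3 can give). The call was lost without Sham 1 (adjusted p 0.0585 by limma) or Sham 3 (0.0606), and without tMCAO 1, the library with erythrocyte genes, the adjusted p was 0.0059.

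Rbm3os, antisense to the gene of a cold-inducible RNA-binding protein, rose together with its sense gene. It measured 7.23, 6.68 and 5.53 FPKM in Sham and 20.1, 18.4 and 18.3 FPKM in tMCAO. The libraries of each group lay close together and the groups were well apart. The difference was 1.42 (SE 0.10, limma adjusted p 0.0031) and the highest adjusted p without any 1 library was 0.0208. Rbm3 went from 10.6 ± 1.34 to 22.9 ± 0.732 FPKM (SD, n = 3 each), a difference of 1.04 (SE 0.10, limma adjusted p 0.0062). Rbm3os changed more than Rbm3. Its log2 level relative to Rbm3 was -0.64 ± 0.0034 in Sham and -0.26 ± 0.03 in tMCAO (SD, n = 3 each), with no overlap (exact permutation p 0.10). Only 94 of its 971 exon bases are shared with Rbm3. It lies on chromosome X at 8145429 to 8147964, on the plus strand.

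Most of the other large rises were beside sense genes that rose too. Gm45774, a single exon that shares 432 of 2665 bases with the metallothionein gene Mt2, whose protein binds zinc, measured 27.3, 27.1 and 24.1 FPKM in Sham and 171, 87.6 and 65.0 FPKM in tMCAO. Every tMCAO library was above every Sham library, and tMCAO 1 stood highest. The difference was 1.89 (SE 0.32, limma adjusted p 0.0189), beside 1.94 for Mt2 (SE 0.33, limma adjusted p 0.0189). Gm16537, antisense to the glycerol phosphate dehydrogenase gene Gpd1, went from 32.0 ± 2.86 to 66.5 ± 10.5 FPKM (SD, n = 3 each), a difference of 1.02 (limma adjusted p 0.0107) beside 0.89 for Gpd1. Gm33051, antisense to the ribosomal protein paralogue gene Rpl22l1, differed by 1.13 and its sense gene by 0.90. Gm15441, antisense to Txnip, whose protein binds thioredoxin, differed by 0.74 and Txnip by 0.96. Gm13070 differed by 0.76 and its sense gene Spsb1 by 0.95. Gm15417 differed by 0.92 and Zbtb7b, which encodes a zinc finger transcription factor, by 0.77. Kdm6bos differed by 0.74 and the histone demethylase gene Kdm6b by 0.70.

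In 2 of the 12 largest rises the antisense RNA lies wholly within exons of a sense gene that changed less. Gm17134, in the splicing regulator gene Ptbp1, went from 7.41 ± 0.402 to 16.2 ± 4.27 FPKM (SD, n = 3 each), and Ptbp1 from 7.77 ± 0.202 to 10.5 ± 1.41 FPKM. The differences were 0.999 and 0.39 (limma adjusted p 0.0212 and 0.0446). Gm42846, in Mxd4, which encodes a partner of MAX, went from 21.3 ± 1.25 to 35.1 ± 2.71 FPKM (SD, n = 3 each), a difference of 0.69 (limma adjusted p 0.0107). Mxd4 differed by 0.30 (limma adjusted p 0.0579) and did not pass. Apart from Uchl1os, Rbm3os, Gm16537, Gm42846 and Gm14257, each of the 12 lost its call in turn without Sham 1, Sham 2 and Sham 3, with adjusted p of at most 0.119 (Kdm6bos) in these fits. Gm16537 and Gm42846 lost it without Sham 1 or Sham 3 (at most 0.0606). Kdm6bos and Gm17134 also lost it without tMCAO 2 (adjusted p 0.0653 and 0.0505), and Gm15441 and Gm13070 without tMCAO 1 or tMCAO 2 (at most 0.0991 and 0.1002 by limma over all fits). Gm13070 also lost it without Sham 2 and tMCAO 3 together (0.0604).

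Gm13031 was the antisense RNA whose fall was called in every fit, and it reached the minimum of 2 FPKM through Sham alone. It lies on chromosome 4 at 140947666 to 140957902 (minus strand) and shares 149 of 924 exon bases with Padi2, the gene of an enzyme that turns arginine to citrulline in myelin proteins. It measured 4.61, 4.11 and 3.73 FPKM in Sham and 1.38, 1.702 and 1.14 FPKM in tMCAO, so the groups were apart. The difference was -1.10 (SE 0.12, limma adjusted p 0.0089), and the highest adjusted p without 1 library was 0.0463. Padi2 fell from 7.05 ± 0.688 to 2.55 ± 0.602 FPKM (SD, n = 3 each), by 1.19 on the log2 scale (limma adjusted p 0.0107). Gm45767, a single exon antisense to Pllp, the gene of the myelin protein plasmolipin, measured 12.8, 10.2 and 10.7 FPKM in Sham and 6.42, 4.67 and 3.31 FPKM in tMCAO. Its difference was -1.11 (limma adjusted p 0.0207), lost in turn without Sham 1, 2 and 3 (at most 0.0846), and that of Pllp -1.16 (0.0226). The 4 oligodendrocyte markers did not pass, and the range of their sum in tMCAO covered that in Sham.

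The largest fall was that of Gm15851, which shares 350 of 662 exon bases with Prelp, the gene of a leucine-rich matrix proteoglycan. It measured 8.66, 6.47 and 9.98 FPKM in Sham and 3.11, 2.35 and 1.05 FPKM in tMCAO, with no overlap. The difference was -1.60 (SE 0.27, limma adjusted p 0.0184), beside -1.46 for Prelp (0.0234). Other large falls were beside sense genes that fell too. Gm26918, antisense to Pclo, which encodes a scaffold of the presynaptic active zone, differed by -1.12 and Pclo by -0.64. Gm13716 differed by -0.98 and Lrrc55, the gene of an auxiliary subunit of potassium channels, by -0.80. Gm42738 differed by -0.92 and the arginine methyltransferase gene Prmt8 by -0.52. Gm11592 differed by -0.92 and the aminopeptidase gene Npepps by -0.37, with 31 shared bases of 637. Gm15879 differed by -0.87 and Dnase1, a gene of a DNA-cutting enzyme, by -0.73. The sense gene passed in each of these pairs. With limma, the calls of Gm15851 and Gm42738 were each lost in turn without Sham 1, 2 and 3 (adjusted p of at most 0.0842 and 0.0758), as was that of Gm15879, which was also lost without tMCAO 1 (at most 0.0894). That of Gm26918 was lost without Sham 2 or 3 (at most 0.0606), that of Gm13716 without Sham 1 or 3 (at most 0.0693) and that of Gm11592 without Sham 3 (0.0634).

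Zeb2os fell beside a smaller fall of Zeb2, the gene of a zinc finger transcription factor. It measured 4.27, 4.76 and 5.63 FPKM in Sham and 2.14, 2.41 and 2.25 FPKM in tMCAO, with every tMCAO library below every Sham library. The difference was -0.84 (SE 0.10, limma adjusted p 0.0107), lost only without Sham 3 (0.0591). Zeb2 went from 8.64 ± 0.754 to 6.27 ± 0.848 FPKM (SD, n = 3 each), a difference of -0.41 (limma adjusted p 0.0492) that was called in none of the 6 fits without 1 library (adjusted p of at most 0.170). The log2 level of Zeb2os relative to Zeb2 was -0.71 ± 0.05 in Sham and -1.15 ± 0.12 in tMCAO (SD, n = 3 each), without overlap (exact permutation p 0.10). Zeb2os also shares 15.6% of its exon length with a gene on its own strand. Microglial marker RNA fell in the same libraries, and its part in the fall of Zeb2os was not tested.

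**Figure D2:**
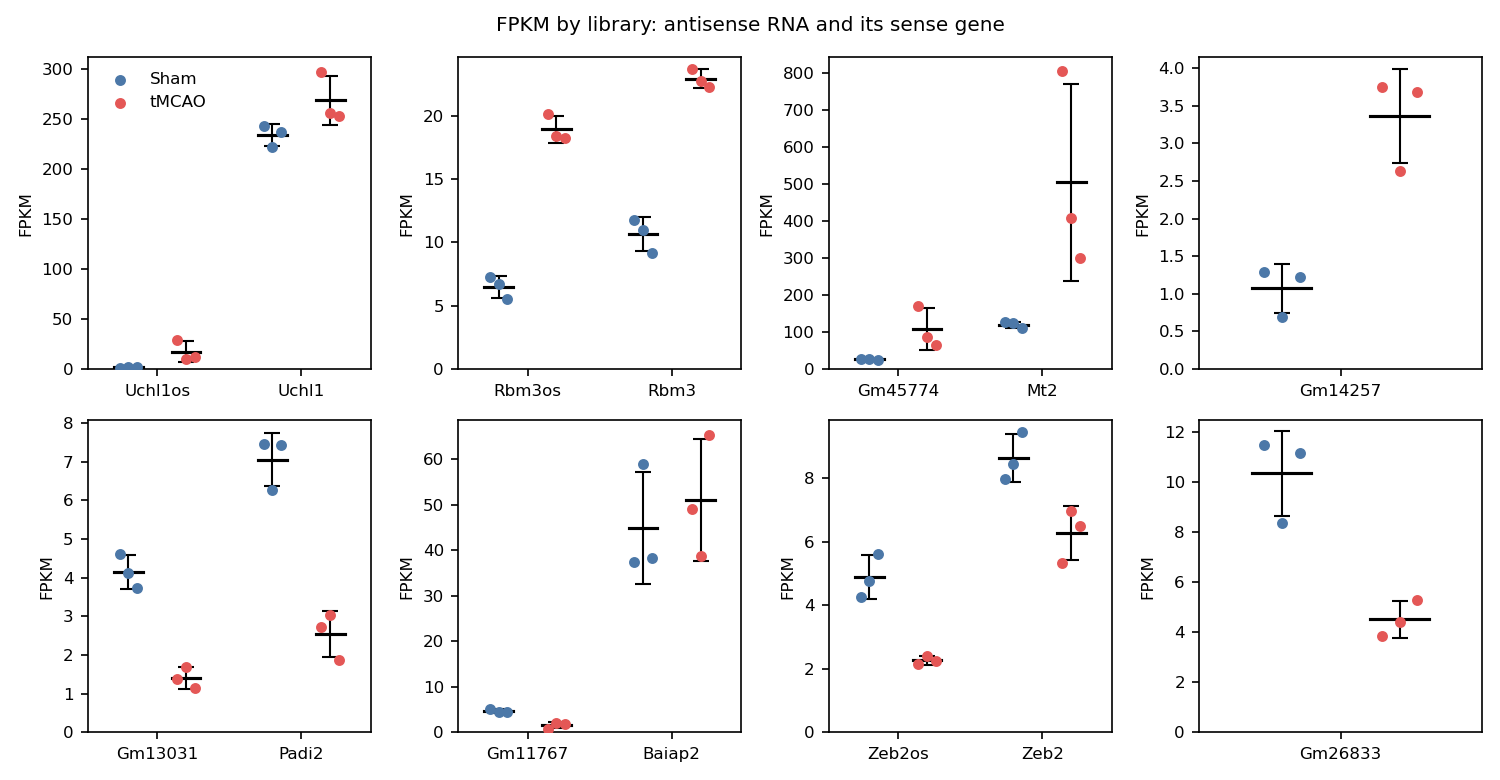
FPKM (vertical axes, each panel on its own scale from 0) of 8 antisense RNAs and, for 6 of them, the sense gene, with 1 point per library, the mean as a bar and the SD as whiskers (n = 3 Sham, n = 3 tMCAO). The antisense groups do not overlap in any panel, while Uchl1 and Baiap2 did not pass the threshold.

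Some of the largest changes were in antisense RNAs that share no exon with a sense gene. Gm14257 (chromosome 2, 155593565 to 155594475, minus strand) had no protein-coding gene on the other strand within the limits used. It measured 1.29, 0.696 and 1.23 FPKM in Sham and 3.75, 2.64 and 3.69 FPKM in tMCAO, each tMCAO value above each Sham value, a difference of 1.07 (SE 0.16, limma adjusted p 0.0153). The call was lost without Sham 1 (0.0585) or Sham 3 (0.0643 by limma). Gm26833 (chromosome 6, 39871532 to 39871971, minus strand), a single exon also without such a gene, measured 11.5, 8.36 and 11.2 FPKM in Sham and 3.85, 4.39 and 5.30 FPKM in tMCAO. All tMCAO values were below all Sham values. Its difference was -1.04 (SE 0.14, limma adjusted p 0.0136), lost without Sham 1 (0.0637) or Sham 3 (0.0704 by limma).

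2410021H03Rik lies within the span of Epb41l3, the gene of a membrane skeleton protein, and shares none of its exon bases. It measured 3.78, 2.60 and 3.54 FPKM in Sham and 1.23, 1.10 and 1.15 FPKM in tMCAO. The tMCAO libraries were nearly equal and lay below all Sham libraries. The difference was -0.98 (SE 0.12, limma adjusted p 0.0107), beside -0.40 for Epb41l3 (0.0190). It was lost without Sham 1 (0.0585) or Sham 3 (0.0612 by limma). Of the 35 antisense RNAs that share no exon base, 1 rose and 6 fell, 20.0% in all, beside the 15.3% of all genes. The other 4 that fell were Gm13111 beside Prdm16 (-0.79), Gm42902 in Ephx4 (-0.74), AC156802.1 in Nrn1 (-0.71) and Gm26935 in Gapdhs (-0.57), and none of these 4 sense genes passed. Their limma adjusted p were 0.0107, 0.0309, 0.0355 and 0.0488. The call of Gm13111 was lost only without Sham 3 (0.0615), and the other 3 were each lost without any 1 Sham library, without tMCAO 1, and without tMCAO 2 (Gm42902 and Gm26935) or tMCAO 3 (AC156802.1), with adjusted p of at most 0.152. AC156802.1 and Gm26935 also lost it without Sham 2 and tMCAO 3 together (0.0517 and 0.0588).

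Gm11767 fell next to a sense gene that did not. It starts 65 bases from the start of Baiap2, which encodes an adaptor that shapes the membrane with actin. Gm11767 shares no exon base with Baiap2, but 21.7% of its exon length with other genes on the other strand. It measured 5.14, 4.52 and 4.47 FPKM in Sham and 0.815, 1.98 and 1.95 FPKM in tMCAO. The groups were apart, with tMCAO 1 the lowest. The difference was -1.18 (SE 0.20, limma adjusted p 0.0184), lost without Sham 1 (0.0802), Sham 2 (0.0614) or Sham 3 (0.0803). Baiap2 measured 44.9 ± 12.2 and 51.1 ± 13.4 FPKM (SD, n = 3 each), a difference of 0.18 (limma adjusted p 0.613). Baiap2 was highest in Sham 2 and tMCAO 3, the libraries high in striatal markers, at 59.0 and 65.4 FPKM.

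Of the 99 antisense RNAs that changed, 92 had a tested sense gene by position. In 43 of these the sense gene was also called, in the same direction, and in 49 it was not. By position, none was paired with a sense gene called in the opposite direction. The antisense RNA had the larger difference in 80 of these 92, which were chosen by its own test, in 35 of the 92 pairs whose sense gene passed, and in 394 of all 640 pairs (61.6%). Conversely, 49 antisense RNAs that did not pass had a sense gene that did. Of these the widest gap, a pair named after its values were seen, was that of Gm44710 and Zfp36, whose protein destabilises mRNAs with AU-rich ends. Zfp36 rose from 1.47, 1.22 and 1.45 FPKM to 11.2, 8.38 and 5.16 FPKM, by 1.91 (SE 0.23, limma adjusted p 0.0107). Gm44710, which shares 125 bases with it, measured 5.98, 6.68 and 6.62 FPKM in Sham and 6.90, 5.91 and 4.28 FPKM in tMCAO. These overlapped, with a difference of -0.17 (limma adjusted p 0.455).

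Among the 49 that changed without a call for the sense gene, Gm17111 was one that went against the sign of its sense gene. It shares 48 of 411 bases with the dynein heavy chain gene Dync1h1 and measured 60.3, 62.6 and 62.6 FPKM in Sham and 84.3, 85.3 and 92.2 FPKM in tMCAO. The groups were far apart for their spread. The difference was 0.49 (SE 0.07, limma adjusted p 0.0132), lost in turn without Sham 1, 2 and 3 (at most 0.074), while Dync1h1 differed by -0.14 (limma adjusted p 0.331). Gm12531 likewise differed by 0.34 (limma adjusted p 0.0248, at most 0.111 without 1 library and 0.0519 without Sham 2 and tMCAO 3) and 4932438A13Rik by -0.21 (0.144). Over the 49 pairs the signs differed in 8, Gm11767 and Baiap2 among them, and over all 640 in 157. Gm17111 and Gm12531 were picked out after their values were seen.

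**Figure D3:**
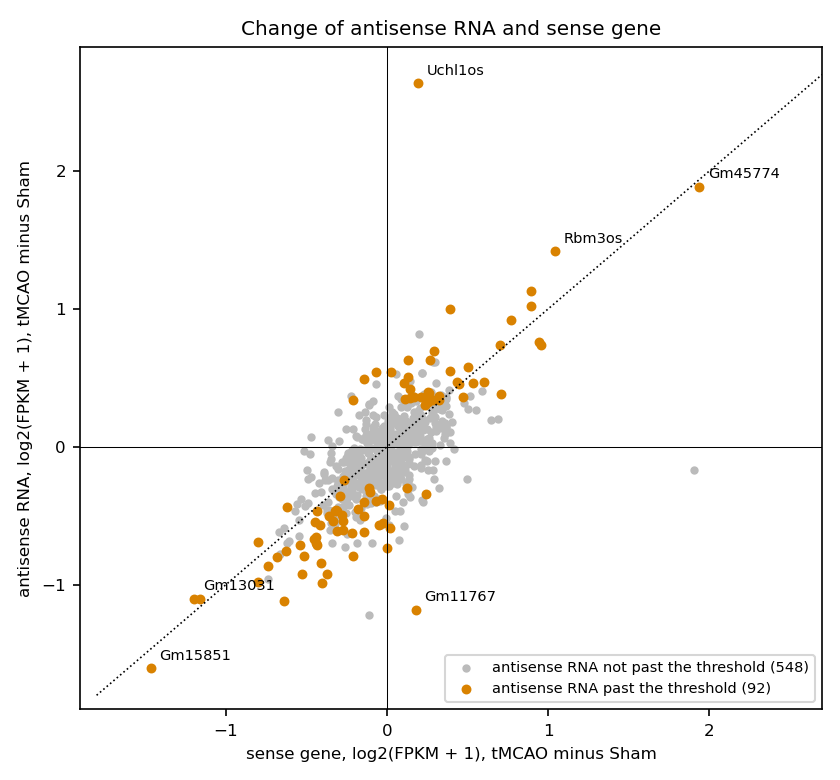
Difference between tMCAO and Sham in log2(FPKM + 1) for 640 antisense RNAs (vertical axis) and their sense gene by position (horizontal axis), with equality dotted and antisense RNAs past the threshold coloured. Most points lie along the diagonal, while Uchl1os and Gm11767 lie near 0 on the sense axis.

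Over the 640 pairs with both genes tested, the differences of antisense RNA and sense gene had a Spearman correlation of 0.68, and 483 pairs (75.5%) had the same sign. The pairs share libraries, and 23 sense genes occur in more than 1 pair, so this is a description. By class of exon length shared with genes on the other strand, the correlation was 0.39 for the 31 pairs that share none, 0.65 for 235 that share up to 25%, 0.76 for 183 above 25% to 50%, 0.71 for 143 above 50% to below 99% and 0.72 for 48 at 99% or more. Of all antisense RNAs, 7 of 35 changed in the first class (20.0%), 41 of 238 in the second (17.2%) and 25 of 184 in the third (13.6%). In the fourth 21 of 145 changed (14.5%) and in the last 3 of 49 (6.12%), beside 15.3% of all tested genes. Among the 195 that start within 1000 bases of a sense start, 9 rose and 19 fell (14.4%). Of 453 others 32 rose and 35 fell (14.8%), so both shares were near that of all genes. Of the 617 sense genes tested, 48 rose and 42 fell, 14.6% in all.

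The level of an antisense RNA relative to its sense gene was higher where more of it was shared. FPKM is scaled by exon length, which does not separate reads of shared bases if strand was not used. The median antisense RNA had 0.287 times the FPKM of its sense gene where no exon base was shared, and 0.472, 0.799, 1.07 and 1.86 times in the following classes. At 99% or more, 46 of 49 were above the sense gene. The correlation of the levels also went from 0.19 to 0.53, 0.52, 0.75 and 0.84 over the classes (Spearman, 32, 238, 184, 145 and 49 pairs). Levels of pairs with many shared bases rest mostly on reads whose strand the files do not give. For 2 antisense RNAs the sense gene was listed at 0, and no ratio was made.

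**Figure D4:**
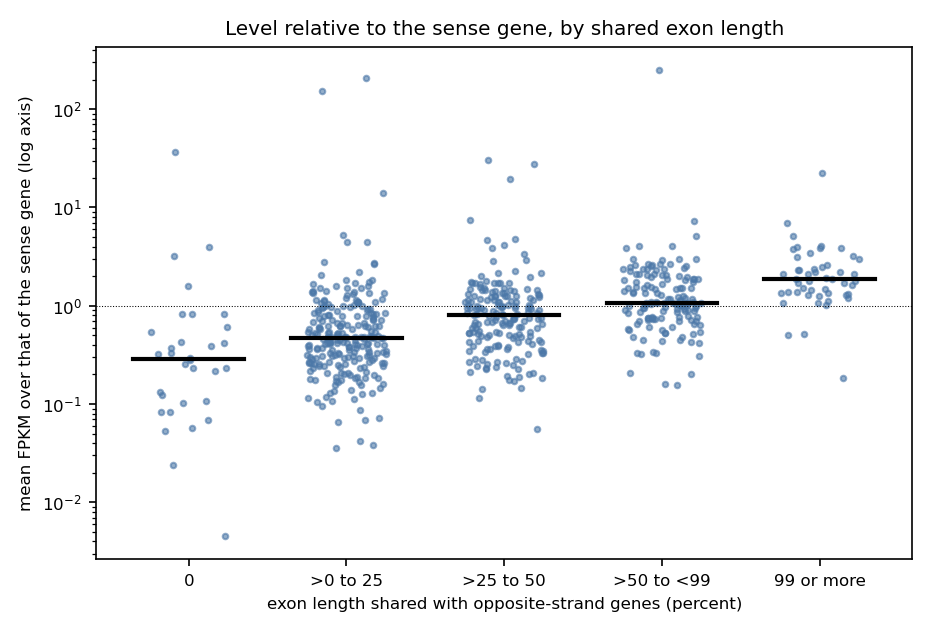
Mean FPKM over 6 libraries of each antisense RNA divided by that of its sense gene (log axis), by the percent of its exon length shared with genes on the other strand, with 1 point per antisense RNA and the median as a bar. The medians rise from 0.287 to 1.86 over the 5 classes, and points spread over more than a 10-fold range within each.

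The log2 level of the antisense RNA minus that of its sense gene did not overlap between the groups in 286 of the 640 pairs (44.7%), 105 higher and 181 lower in tMCAO. Over all 1122 antisense RNAs with a tested pair, lowly expressed ones included, the share was 38.9%. In each, the exact permutation p was 0.10, the smallest possible. Without Sham 2 and tMCAO 3, which leaves 2 libraries a group, 431 pairs did not overlap. Fewer libraries alone make such gaps more frequent, so this count cannot be compared with 286, and no share over all pairs is given for it. The shares by class were 35.5%, 43.0%, 47.5%, 45.5% and 45.8%, from no shared exon to 99% or more.

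The name gave the sense gene for 65 antisense RNAs, and in 59 of them position gave the same gene. Uchl1os, Rbm3os, Kdm6bos and Phtf1os rose, Zeb2os and Slain1os fell, and 59 did not pass. Of their 57 tested sense genes, 2 rose and 3 fell. The shares that passed were 9.23% and 8.77%, beside the 15.3% of all tested genes. Phtf1os measured 5.21, 5.26 and 5.05 FPKM in Sham and 6.94, 6.41 and 6.83 FPKM in tMCAO, with no overlap, a difference of 0.32 (limma adjusted p 0.0284) that was lost without any 1 of Sham 1, 2 and 3 and tMCAO 1 (at most 0.124) and without Sham 2 and tMCAO 3 together (0.0696). Phtf1, a gene of a membrane protein, differed by -0.35 (limma adjusted p 0.0359), so by name this pair was called in opposite directions. By position, Phtf1os shares 63.0% of its exon length with genes on the other strand, 2101 of its 4046 exon bases with Rsbn1, which differed by 0.26 (limma adjusted p 0.0542), and 11.1% with Phtf1. Slain1os differed by -0.47 (limma adjusted p 0.0388), lost without any 1 of Sham 1, 2 and 3 and tMCAO 1 (at most 0.133) and without Sham 2 and tMCAO 3 together (0.0627), and Slain1, whose protein binds growing microtubule ends, by -0.43 (0.0521).

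Relative to the sense gene of the same name, 10 of the 65 antisense RNAs were higher and 15 lower in tMCAO without overlap, 38.5% in all. The share was 44.7% in the 640 pairs by position and 38.9% over all 1122 pairs, which include lowly expressed antisense RNAs. The sense gene was tested in 62 of the 65. The widest of these differences were 2.44 for Uchl1os, 0.68 for Phtf1os and 0.57 for Dhrs13os, and -1.11 for Dlx6os1, -0.50 for Phf2os1 and -0.46 for Arf4os. Some sense genes have more than 1 named antisense RNA, and whether these differ from each other was not tested. Kcnmb4os1 was higher relative to Kcnmb4, the gene of a potassium channel subunit, by 0.14, and Kcnmb4os2 lower by 0.24, both without overlap. Chn1os1 relative to Chn1 differed by -0.15 without overlap and Chn1os3 by 0.03 with overlap. Relative to their sense genes the differences were -0.04 and 0.05 for Pcsk2os1 and Pcsk2os2, -0.06 and 0.04 for Ube4bos1 and Ube4bos3, all with overlap, and -0.02 with overlap and -0.22 without for Bcas1os1 and Bcas1os2.

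**Figure D5:**
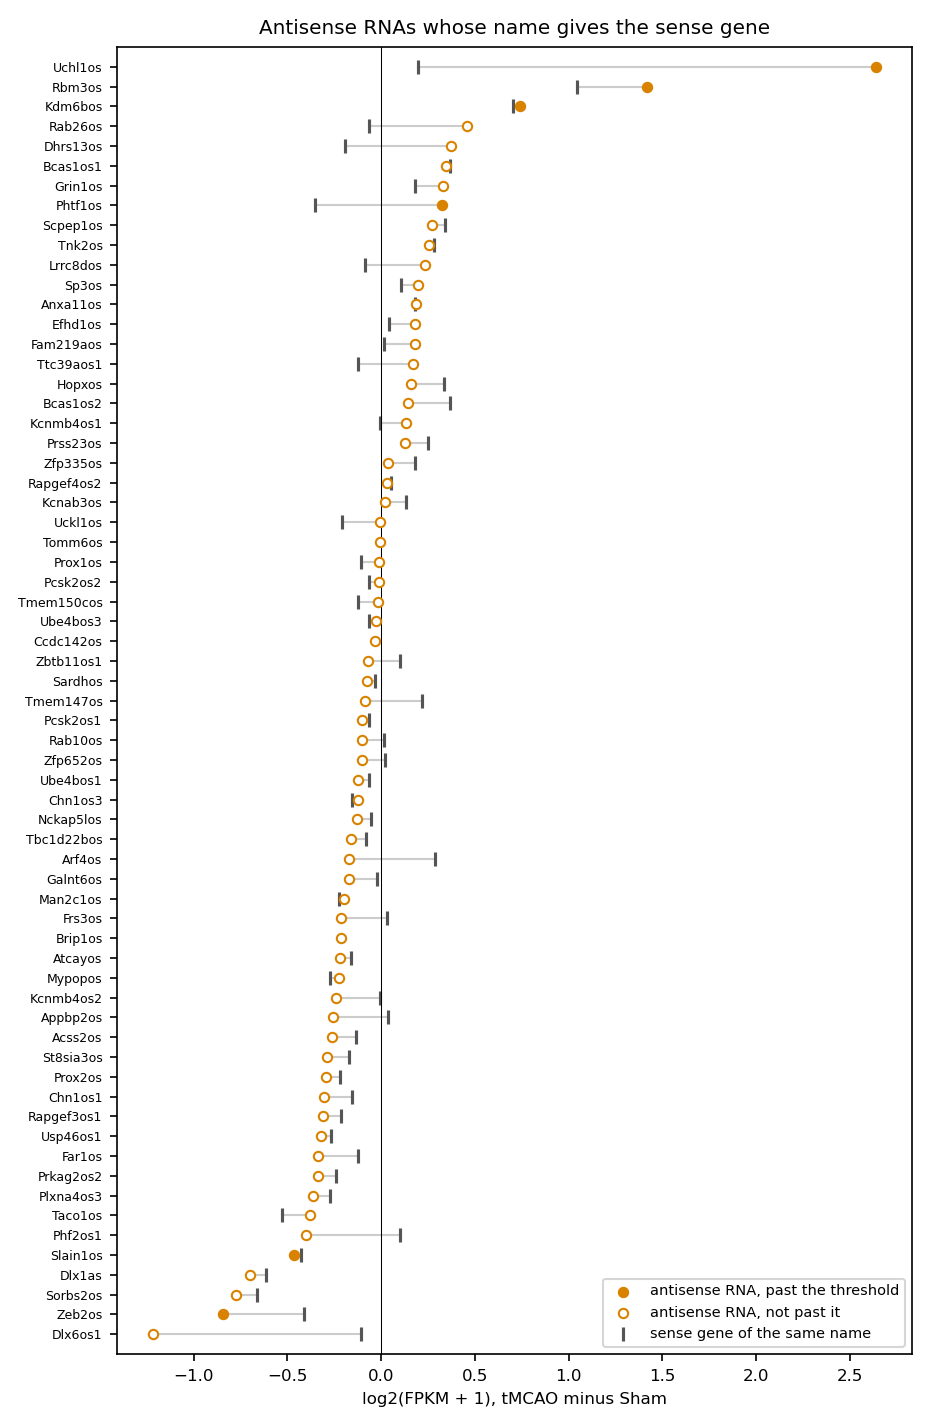
Difference between tMCAO and Sham in log2(FPKM + 1) for the 65 antisense RNAs whose name gives the sense gene (circles, filled where past the threshold) and for that gene (bars), where tested. Most circles lie within 0.5 of 0, and Uchl1os stands farthest from its sense gene.

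Some antisense RNAs differed within the groups between Sham 2 or tMCAO 3 and the other libraries. Prox1os, beside the dentate granule cell gene Prox1, measured 3.09, 1.11 and 3.92 FPKM in Sham and 4.58, 2.95 and 0.894 FPKM in tMCAO. It was low in Sham 2 and tMCAO 3, as Prox1 was at 2.09 and 1.75 FPKM against 5.82 to 6.43 elsewhere. Its difference was -0.01 (limma adjusted p 0.989). Dlx6os1 and Dlx1as lie beside homeobox genes of forebrain interneurons. Dlx6os1, known in mouse to regulate its neighbours Dlx5 and Dlx6, measured 3.08, 7.73 and 3.81 FPKM in Sham and 0.743, 1.41 and 2.25 FPKM in tMCAO. It was highest within each group in Sham 2 and tMCAO 3, the libraries high in striatal markers, and the groups did not overlap. Its difference of -1.22 (SE 0.33, limma adjusted p 0.0520) did not pass with all 6 libraries and passed without Sham 2 and tMCAO 3 (adjusted p 0.0358). Dlx1as had 5.96, 10.2 and 6.26 FPKM in Sham and 3.15, 4.31 and 5.01 FPKM in tMCAO, a difference of -0.70 (limma adjusted p 0.0701).

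Of the 10 most abundant antisense RNAs none passed with all 6 libraries. They were Gm14703 on the synaptophysin gene Syp (268 FPKM), Chn1os1 on the Rac regulator gene Chn1 (245 FPKM), Gm28221 on the calcium sensor gene Ncald (243 FPKM) and Gm28294 on the secretory granule gene Ptprn (227 FPKM). Gm42413 on Qdpr, Gm12841 on Atp6v0b, CT010505.2 on App, Gm12316 on Mink1, Gm12999 on Atpif1 and Gm28902 on Resp18 followed at 171 to 107 FPKM. Each had more FPKM than its sense gene, by 1.14 times (CT010505.2) to 3.94 times (Gm28221). Chn1os1 shares 83.8% of its exon length with Chn1, and Gm12999 shares 99% or more with genes on the other strand, while Gm28902 shares at most 25%. As the use of strand is not known, part of these levels may be reads of the sense genes. Gm14703 measured 257, 236 and 256 FPKM in Sham and 295, 272 and 290 FPKM in tMCAO, with no overlap, and differed by 0.19 (limma adjusted p 0.143). CT010505.2 had 158, 152 and 162 FPKM in Sham and 126, 119.5 and 145 FPKM in tMCAO, also apart, and differed by -0.28 (limma adjusted p 0.0819, and 0.0413 without Sham 2 and tMCAO 3).

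The antisense RNAs with the lowest means at or above the minimum of 2 FPKM were Gm15336, 1700052K11Rik and AC163102.1, at 2.009, 2.009 and 2.003 FPKM. Just below it came Gm16192, 1700034P13Rik and AW495222, at 1.999, 1.984 and 1.981 FPKM.

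In the authors' deposited table, 122 of the 656 had an adjusted p below 0.05, 45 higher and 77 lower in tMCAO, against 20.2% of its 22647 genes. Of the 99 called by limma, 86 were among them, in the same direction. The authors' deposited table signs its log2 fold change as Sham over tMCAO and gave Uchl1os -3.36, Rbm3os -1.55 and Gm13031 1.56.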

How the data were processed

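RNA was measured by sequencing in 3 Sham and 3 tMCAO right hippocampi, per the labels. The submitters' processing notes name build mm10, on which the authors computed the deposited FPKM. The aligner, the counter and the use of strand were not given in the sources used here. In addition, the authors' deposited table of 22647 genes holds a log2 fold change and a p-value of their own comparison, by a test that the sources used here do not name.

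FPKM were taken as deposited, without rescaling. The worth of 1 read was read from the FPKM steps, which gave whole reads (tolerance 0.001) for 100% of the 36452 genes above 0 (of which 30195 are above 0 in at least 3 libraries, where this is not given by construction), and the lengths matched the annotation for 640 of the 656 antisense RNAs. For the others the recovered number is the lowest that the steps allow. A recovered unit may be a single read or a pair.

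Tests used limma 3.58.1 (R 4.3.3, with eBayes and its trend option) on log2(FPKM + 1) over 17832 genes with a mean of at least 0.5 FPKM, tested on simulated data. Differences on this scale understate those of low genes. Levels relative to the sense gene are the log2(FPKM + 1) of the antisense RNA minus that of the sense gene. Single values and these levels used exact permutation over 20 assignments (scipy 1.17.1). No label says that libraries came from separate animals, and a p-value then reflects only how far these samples spread, which may be technical. Reads of near-identical copies may be split between genes.

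The genes and lists were chosen with earlier results of these data known. Named are the 12 largest rises and 12 largest falls past the threshold, the 10 highest means, antisense RNAs whose name gives the sense gene, 3 on either side of the minimum, and the sense genes of these. Others are said to be chosen after their values were seen or are the genes that make up a small count. Alternatives were the pseudocount, the filter, the scaling, the fit, the gene set, recovered reads with voom, a striatal marker score and leaving out libraries. No alternative was added later.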

Additional observations from a re-analysis of the deposited data

How the results depend on the processing

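The count of 99 antisense RNAs past the threshold, 43 higher and 56 lower, was within 1.5 times of itself, in both directions, with a pseudocount of 0.1, a minimum of 2 FPKM, median-ratio and quantile scaling, no variance trend, the gene set of the authors' comparison table and the striatal score. Without a filter it was 44 (22 higher and 22 lower), and with library weights 196 (69 and 127). These were 6.71% and 29.9% of the antisense RNAs, beside 3.24% and 26.6% of all tested genes. With voom on recovered reads 69 passed (27 higher and 42 lower), 10.5% of the antisense RNAs beside 13.5% of all tested genes. Of these 69, 63 were among the 99. Without Sham 2 and tMCAO 3 82 passed (25 higher and 57 lower), 12.5% beside 10.1% of all tested genes. Equal FPKM sums gave 30 higher and 80 lower, 16.77% beside 14.01% of all tested genes. Without 1 library the count ran from 2 to 171, with 1 to 56 higher and 1 to 115 lower. The cause was not tested, apart from the smaller number of libraries in these fits. Pairs whose relative level did not overlap numbered 286 and were 431 without Sham 2 and tMCAO 3, where 2 libraries a group are left. Leaving out 1 library gave 330 to 377 such pairs. Fewer libraries alone make non-overlap more frequent, so these counts cannot be compared with 286, and no share over all pairs is given for them. No direction was reversed in any named gene past the threshold. Among the 97 named antisense RNAs, those that passed with all 6 libraries and then missed the threshold numbered 22 without Sham 1, 16 without Sham 2, 25 without Sham 3, 6 without tMCAO 1, 5 without tMCAO 2, 8 without a filter, 4 without Sham 2 and tMCAO 3, and 1 each with voom and quantile scaling. No paired analysis was possible because the titles share no replicate numbers and the tMCAO columns carry only column numbers. Of the 656, 506 had at least 100 reads in every library, while the lowest count of any was 10 reads, and the effect of depth was not tested. Having 3 libraries a group limits every test.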
